A study of Yarrowia lipolytica with 4 samples.

Results

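Yarrowia lipolytica, an oleaginous yeast, had 9 genes annotated as ZIP zinc/iron permeases or as CobW-type metallochaperones among 6797 genes in the deposited expression table. They are all 7 genes described as a ZIP zinc transporter or a zinc/iron permease and both genes described as holding a CobW/HypB/UreG nucleotide-binding domain. The descriptions selected the genes, but these families were singled out because their levels in strain F19 against strain WLH were already known, so the strain values below are a description and carry no test. F19 comes from a study that applied genome-wide CRISPR interference, where inactive Cas9 blocks transcription at a guide's target, to find cells that withstand furfural and acetic acid. WLH served as the control. The labels place both in the PO1f background, which is auxotrophic for leucine and uracil. Cultures of both grew at 30 °C for 48 h in SD medium lacking leucine with 2.4 mM furfural, a toxic aldehyde of biomass hydrolysates, and F19 and WLH gave 2 poly(A) RNA libraries each. The sources used here do not name the target repressed in F19, so the repression itself was not checked, and furfural-free cultures were not analysed here. Genes are called below by the table's identifiers, without the prefix gene- after first mention.

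ZIP proteins are membrane carriers that move zinc, and in some members iron or manganese, into the cytosol from outside the cell or from an organelle. In baker's yeast, ZIP carriers of the cell surface are made in larger amounts when zinc is scarce, and another ZIP carrier releases zinc from the vacuole. CobW proteins are nucleotide-binding metallochaperones. A member of that family in baker's yeast and animals hands zinc to a methionine aminopeptidase, an enzyme that trims new proteins.

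The libraries held between 18268878 and 24165223 counts. Of 6414 genes with enough counts for edgeR's quasi-likelihood test, 1659 were called higher and 1635 lower in F19 at a Benjamini-Hochberg adjusted p under 0.05, which is 25.9% and 25.5% of the genes tested and 51.4% together. With library totals in place of TMM factors, which scale libraries on the bulk of genes, 2419 were called higher and 1066 lower, and the all-gene median of the log2 fold change was 0.24 in place of 0.01. Nothing in the labels shows that replicate libraries were grown separately, so each p-value reflects the spread of these libraries alone, which may be technical. In bulk RNA, more cells that use a gene and more RNA per cell cannot be told apart.

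The ZIP genes BKA90DRAFT_143097, BKA90DRAFT_135438 and BKA90DRAFT_141232 were the most abundant of the 9 in F19 and stood far above their WLH levels. gene-BKA90DRAFT_143097 (scaffold ML756081.1, 18630 to 20081, minus strand) had 24859 and 23922 counts in F19 replicates 1 and 2, against 3095 and 1146 in WLH replicates 1 and 2. Its FPKM, the count divided by exonic length and by the library total, were 876 and 873 in F19, against 88.2 and 43.2 in WLH. The F19 libraries were nearly equal, while WLH replicate 1 stood at 2.06 times the level of WLH replicate 2 after TMM scaling.

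gene-BKA90DRAFT_135438 (ML755989.1, 10469 to 11942, plus strand) had 13650 and 14022 counts in F19, against 1080 and 422 in WLH. That made 474 and 504 FPKM in F19, against 30.3 and 15.7 in WLH. The strains did not overlap, and again the WLH libraries differed more than the F19 libraries. The deposited annotation gives this gene and BKA90DRAFT_143097 the same KEGG ortholog number, K14709, and of the 7 ZIP genes this one alone carries annotation terms for zinc import and for the plasma membrane.

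The ratio of BKA90DRAFT_143097 to BKA90DRAFT_135438 in FPKM was 1.85 and 1.73 in F19, against 2.91 and 2.76 in WLH. The ratio was therefore close between libraries of a strain, also in WLH, where both genes varied nearly alike between replicates. Their exonic lengths are 1452 and 1474 bases.

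gene-BKA90DRAFT_141232 (ML756040.1, 19749 to 21612, plus strand), with ortholog number K07238, had 16039 and 13027 counts in F19, against 1865 and 1258 in WLH. In FPKM it stood at 440.1 and 370.4 in F19, against 41.4 and 36.9 in WLH. Unlike the pair that shares K14709, its WLH libraries were close together, with a TMM-scaled ratio of replicate 1 to 2 of 1.13.

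**Figure D1:**
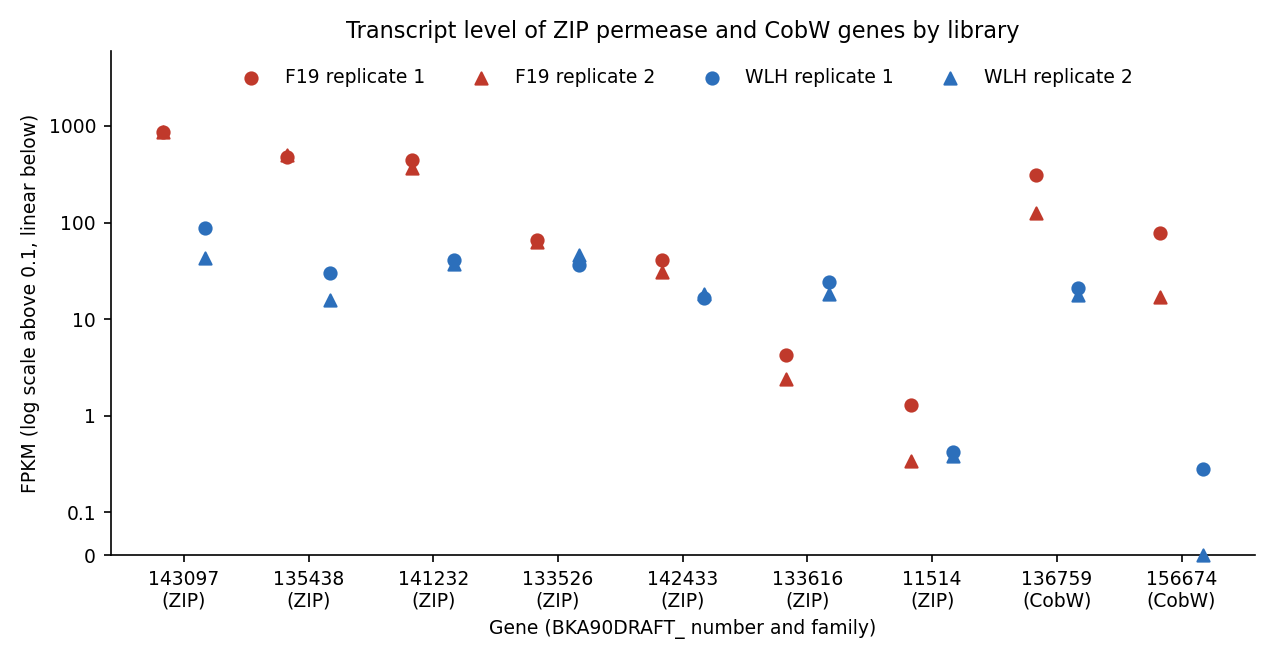
FPKM of the 9 genes in each library, on an axis that is logarithmic above 0.1 and linear below; red points are F19, blue points WLH, circles replicate 1 and triangles replicate 2. The first 3 ZIP genes lie between 370.4 and 876 FPKM in F19, against 15.7 to 88.2 in WLH, and BKA90DRAFT_133616 is the gene with both F19 points below both WLH points.

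The remaining ZIP genes with an ortholog number differed by smaller factors. gene-BKA90DRAFT_133526 (ML755980.1, 358439 to 360325, plus strand) has the number K14713, which KEGG gives to a human ZIP of the endoplasmic reticulum and Golgi apparatus. It had 2459 and 2223 counts in F19, against 1672 and 1582 in WLH, and 66.7 and 62.4 FPKM in F19, against 36.7 and 45.9 in WLH. gene-BKA90DRAFT_142433 (ML756062.1, 57622 to 58938, plus strand) has the number K14715, that of another human ZIP. It had 1066 and 767 counts in F19, against 524 and 440 in WLH, and 41.4 and 30.9 FPKM in F19, against 16.5 and 18.3 in WLH. For both genes the F19 libraries lay above the WLH libraries, by 1.56-fold for BKA90DRAFT_133526 and 2.08-fold for BKA90DRAFT_142433 in mean FPKM.

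gene-BKA90DRAFT_133616 (ML755981.1, 55130 to 56945, plus strand) went the other way. It had 151 and 82 counts in F19, against 1052 and 599 in WLH, and 4.25 and 2.39 FPKM in F19, against 24.0 and 18.1 in WLH. Its mean FPKM was 3.32 ± 1.32 in F19 and 21.0 ± 4.18 in WLH (SD, n = 2 each), which puts it 6.33-fold lower in F19. It carries no ortholog number in the deposited table. gene-BKA90DRAFT_11514 (ML755992.1, 214171 to 216026, plus strand) was barely present, with 47 and 12 counts in F19, against 19 and 13 in WLH, and 1.30 and 0.34 FPKM in F19, against 0.42 and 0.38 in WLH. One F19 library lay above and the other below both WLH libraries.

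Summed over the 7 genes, ZIP transcripts came to 1903 and 1844 FPKM in the F19 libraries, against 237 and 178 in the WLH libraries. The means were 1873 ± 41.9 in F19 and 208 ± 41.7 in WLH (SD, n = 2 each), a ratio of 9.01. With 2 libraries against 2, an exact permutation test could not reach the threshold, and none was run. The first 3 genes made up 94.0% and 94.8% of this sum in F19, against 67.4% and 53.7% in WLH. The remaining 4 ZIP genes together stood at 105 ± 12.4 FPKM in F19 and 80.1 ± 3.61 FPKM in WLH, a ratio of 1.31. FPKM rest on library totals, with which the middle log2 value over the genes tested was 0.24, against 0.01 with TMM factors. The sum of these 4 genes was not recomputed with TMM factors. How much of the 1.31 comes from the scaling was not tested.

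The division among genes also differed. BKA90DRAFT_135438 took 24.9% and 27.3% of the summed ZIP FPKM in F19, against 12.8% and 8.78% in WLH. BKA90DRAFT_141232 took 23.1% and 20.1% in F19, against 17.4% and 20.7% in WLH, with overlap between the strains. BKA90DRAFT_133616 supplied 0.223% and 0.130% in F19, against 10.1% in each WLH library.

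**Figure D2:**
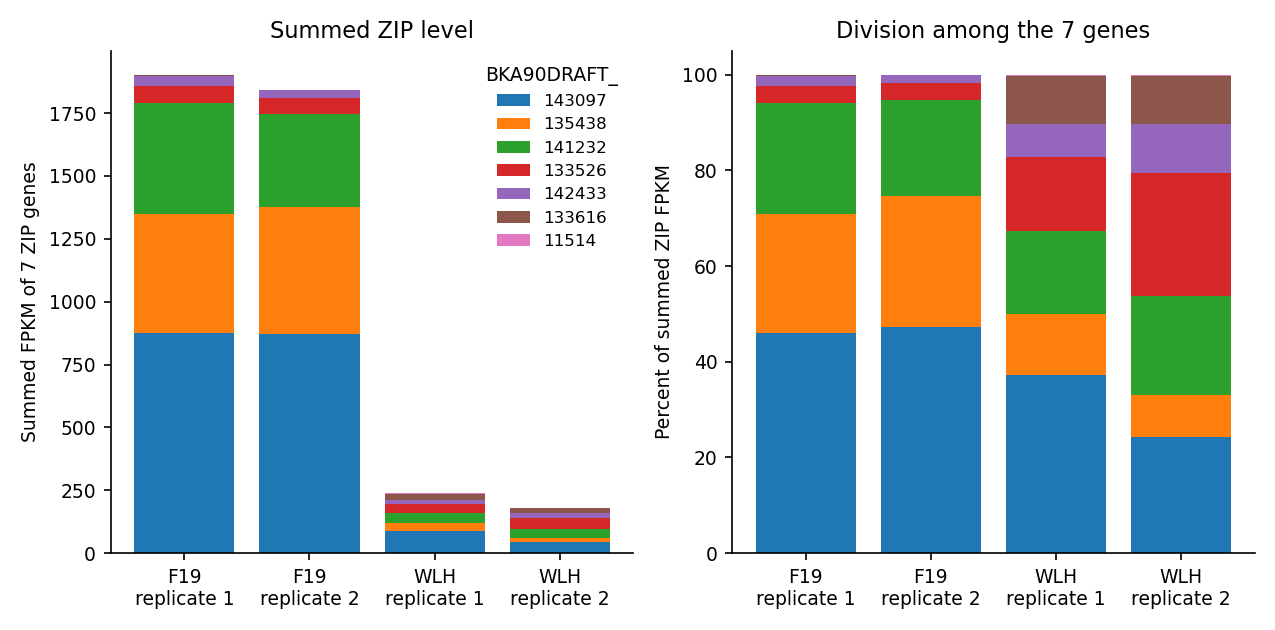
Left, summed FPKM of the 7 ZIP genes in each library, stacked by gene; right, the same as percent of the sum. The F19 bars reach 1903 and 1844 FPKM, against 237 and 178 for WLH, and BKA90DRAFT_143097 is the largest part in 3 of the libraries and just below BKA90DRAFT_133526 in WLH replicate 2.

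Both CobW genes were higher in F19, and in each the F19 libraries lay far apart. gene-BKA90DRAFT_136759 (ML755997.1, 29061 to 30447, minus strand) had 8519 and 3279 counts in F19, against 700 and 450 in WLH. In FPKM it stood at 314 and 125 in F19, against 20.9 and 17.8 in WLH. Both F19 values exceeded both WLH values, and F19 replicate 1 was 2.44 times replicate 2 after TMM scaling. gene-BKA90DRAFT_156674 (ML756118.1, 2193 to 3794, plus strand) had 2454 and 509 counts in F19, against 11 and 0 in WLH. That was 78.4 and 16.8 FPKM in F19, against 0.28 and 0 in WLH, and F19 replicate 1 was 4.53 times replicate 2.

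For BKA90DRAFT_156674 the counts summed to 2963 in F19 and 11 in WLH, a ratio of 253 after TMM scaling with an exact 95% interval from 141 to 507, which covers counting error only and not the spread between libraries. BKA90DRAFT_136759 was the more abundant CobW gene in each of the 4 libraries, at 4.01 and 7.44 times the FPKM of BKA90DRAFT_156674 in F19, against 74.6 times in WLH replicate 1. In WLH replicate 2 no count of BKA90DRAFT_156674 was found to set it against. The deposited table has no further gene with this domain in its description.

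Fold changes from the edgeR fit over all genes, on TMM-scaled counts, put these values on 1 scale. The log2 fold change of F19 over WLH was 4.17 ± 0.32 (SE) for BKA90DRAFT_135438, 3.50 ± 0.34 for BKA90DRAFT_143097 and 3.14 ± 0.16 for BKA90DRAFT_141232, or 18.0-fold, 11.3-fold and 8.79-fold. Between BKA90DRAFT_142433 at 0.82 ± 0.17 and BKA90DRAFT_133526 at 0.41 ± 0.14, the sizes were within the range that holds the middle 90% of all genes, from -1.36 to 1.47. BKA90DRAFT_133616 had -2.90 ± 0.29, a 7.45-fold lower level, and BKA90DRAFT_11514 had 0.78 ± 0.62, close to its own error.

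The CobW genes had log2 fold changes of 7.94 ± 1.05 for BKA90DRAFT_156674 and 3.26 ± 0.40 for BKA90DRAFT_136759 (SE). BKA90DRAFT_156674 ranked 1 among the 6414 genes ordered from the largest rise, a rank that rests on 11 and 0 counts in WLH. BKA90DRAFT_135438 ranked 18, BKA90DRAFT_143097 33, BKA90DRAFT_136759 42 and BKA90DRAFT_141232 48. All 9 genes passed the filter on low counts, 7 were called higher, 1 was called lower and BKA90DRAFT_11514 was not called. The libraries of the strains did not overlap for 8 of the 9, against 79.5% of all genes tested. These counts stand beside the 51.4% of all genes called, and nothing is read from them because the families were chosen on this contrast.

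Leaving out a single library moved several of these values. Without F19 replicate 1 the fold of BKA90DRAFT_136759 was 5.56 in place of 9.61, and without WLH replicate 1 that of BKA90DRAFT_143097 was 17.3 in place of 11.3. The fitted fold of BKA90DRAFT_156674 was 88.5 without F19 replicate 1, 404 without F19 replicate 2 and 139 without WLH replicate 2, against 245 with all libraries. Without WLH replicate 1 the remaining WLH library had 0 counts. With a floor of 3 counts in that library, the F19 mean stood at 394 times the floor, counting error only. F19 replicate 1 was 4.53 times replicate 2 after TMM scaling, so 394 is not a lower bound for F19 replicate 2. The call of BKA90DRAFT_133526 was lost without any 1 of the 4 libraries and that of BKA90DRAFT_142433 without WLH replicate 1 or WLH replicate 2. BKA90DRAFT_11514 had a log2 fold change of -0.46 without F19 replicate 1 and 1.43, then called, without F19 replicate 2.

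**Figure D3:**
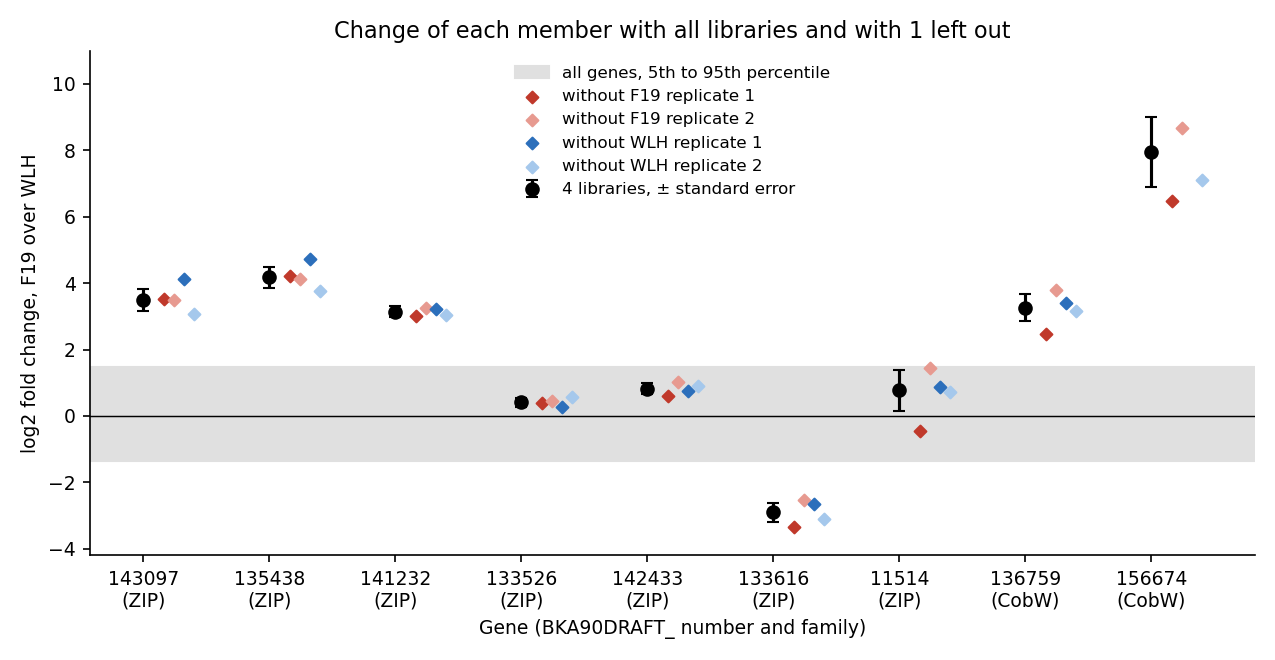
Log2 fold change of F19 over WLH for the 9 genes; black points with bars are the fit on 4 libraries ± standard error, diamonds the fits with 1 library left out, and the grey band holds the middle 90% of all genes, from -1.36 to 1.47. The value of BKA90DRAFT_156674 without WLH replicate 1 is not drawn, since the remaining WLH library had 0 counts. BKA90DRAFT_141232 moves least among the genes above the band.

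The authors' deposited table of significant genes, whose smallest absolute log2 fold change is 1.00, lists 6 of the 9, 5 higher and 1 lower in F19. In the authors' deposited table the log2 fold changes are 8.13 for BKA90DRAFT_156674, 4.18 for BKA90DRAFT_135438, 3.50 for BKA90DRAFT_143097, 3.27 for BKA90DRAFT_136759, 3.14 for BKA90DRAFT_141232 and -2.89 for BKA90DRAFT_133616. The ZIP genes that it does not list are BKA90DRAFT_142433, BKA90DRAFT_133526 and BKA90DRAFT_11514, whose log2 fold changes in the present fit are below 1.

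The spread between libraries of a strain varied widely among the 9 genes. This spread is not independent of the choice of genes where that choice rested on calls, which weigh the strain difference against it. Over all 6414 genes tested, the median absolute log2 ratio between the libraries was 0.19 in F19 and 0.15 in WLH. BKA90DRAFT_143097 and BKA90DRAFT_135438 had ratios of replicate 1 to 2 of 0.977 and 0.915 in F19, against 2.06 and 1.96 in WLH. Their WLH spread was larger than that of 98.6% and 98.2% of genes, and their F19 spread larger than that of 10.3% and 36.5%. The CobW genes BKA90DRAFT_136759 and BKA90DRAFT_156674 and the ZIP gene BKA90DRAFT_11514 had F19 spreads larger than those of 98.7%, 99.7% and 99.6% of genes. In WLH the spread of BKA90DRAFT_136759, with a ratio of 1.19, was larger than that of 70.5% of genes, and that of BKA90DRAFT_156674, with 11 and 0 counts, was among the widest of all. A small offset added before the logarithm sets the size of that last spread. The percentiles compare genes of all depths, so those of genes with few counts, such as BKA90DRAFT_11514, also hold counting error. The ZIP genes BKA90DRAFT_141232, BKA90DRAFT_133526 and BKA90DRAFT_142433 lay between percentiles 18.1 and 78.1 in F19 and between 46.5 and 78.2 in WLH. The low ZIP gene BKA90DRAFT_133616 had ratios of 1.73 in F19 and 1.34 in WLH, so its replicate 1 was higher in both strains. What lay behind these differences between libraries was not tested.

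By FPKM, the order of levels in F19 ran from BKA90DRAFT_143097 through BKA90DRAFT_135438, BKA90DRAFT_141232, BKA90DRAFT_136759, BKA90DRAFT_133526, BKA90DRAFT_156674, BKA90DRAFT_142433 and BKA90DRAFT_133616 to BKA90DRAFT_11514. BKA90DRAFT_156674 overlapped both its neighbours in that order, BKA90DRAFT_133526 and BKA90DRAFT_142433, and the other adjacent genes did not overlap. In WLH the order was compressed. From BKA90DRAFT_143097, at 65.7 ± 31.8 FPKM (SD, n = 2), through BKA90DRAFT_133526 to BKA90DRAFT_141232 the adjacent genes overlapped, and so did those from BKA90DRAFT_135438 through BKA90DRAFT_133616 and BKA90DRAFT_136759 to BKA90DRAFT_142433. Among all genes of a library, BKA90DRAFT_143097 stood at percentile 97.7 and 97.5 of FPKM in F19, against 76.5 and 59.5 in WLH. The 9 genes together took 0.355% and 0.308% of all gene counts in F19, against 0.0415% and 0.0324% in WLH.

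The 9 genes lie on 9 scaffolds, and the genes beside them differed in both directions. Of 34 genes within 2 places of a member, 32 were tested, 9 were called higher and 12 lower in F19, against 25.9% of all genes called higher and 25.5% called lower, and their median log2 fold change was 0.00, against 0.01 for all genes. The genes beside BKA90DRAFT_143097 and BKA90DRAFT_135438 ran from -0.83 to 1.15. BKA90DRAFT_156674 is the first of 7 genes on its short scaffold, and the next gene, BKA90DRAFT_143750, a nucleoside phosphatase 184 bases away on the other strand, had 135 and 119 FPKM in F19, against 70.0 and 87.3 in WLH (log2 fold change 0.46 ± 0.15, SE).

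Larger changes were found beside BKA90DRAFT_141232 and BKA90DRAFT_136759. Both genes before BKA90DRAFT_141232 were higher in F19, BKA90DRAFT_39494, an acyl-CoA N-acyltransferase, at 38.4 and 32.1 FPKM in F19 against 7.48 and 9.69 in WLH, and BKA90DRAFT_39495, a hypothetical protein, at 18.2 and 19.1 FPKM in F19 against 1.66 and 1.48 in WLH. The hypothetical gene 2 places after it, BKA90DRAFT_141239, was lower, at 22.8 and 8.89 FPKM in F19 against 78.2 and 89.1 in WLH (log2 fold change -2.64 ± 0.39, SE). The gene that ends 41 bases from the CobW gene BKA90DRAFT_136759 on the opposite strand, the cupin-domain gene BKA90DRAFT_157117, was far lower in F19, at 3.68 and 1.94 FPKM against 45.8 and 46.3 in WLH. The adjacent genes thus differed between the strains in opposite directions. BKA90DRAFT_133616 overlaps BKA90DRAFT_133617, a dimethyladenosine transferase on the other strand, by 27 bases, and reads there cannot be told apart if the counting ignored the strand. BKA90DRAFT_133617 had a log2 fold change of 0.48 ± 0.21 (SE; edgeR, adjusted p = 0.0895), the opposite sign to its partner.

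**Figure D4:**
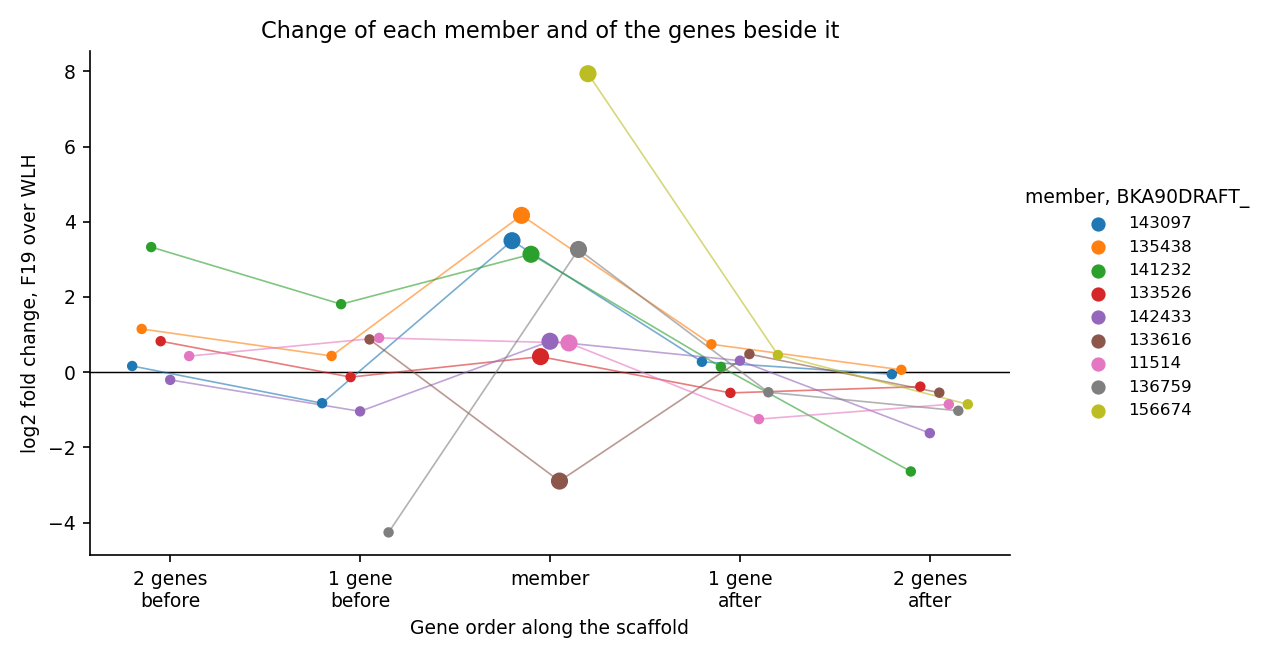
Log2 fold change of F19 over WLH for each member (large points) and for up to 2 genes on each side of it on its scaffold (small points), joined by a line for each member. The neighbours of BKA90DRAFT_156674, at 0.46 and -0.86, lie far below it, and the line of BKA90DRAFT_136759 starts from the low value of BKA90DRAFT_157117, -4.26.

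Likeness was measured as the Euclidean distance between log2 CPM values centred on each gene's mean over the 4 libraries, a description in which genes with a large strain difference are alike by construction. The annotated gene nearest to BKA90DRAFT_143097 was BKA90DRAFT_137335, a CRAL-TRIO protein, at a distance of 0.264, then BKA90DRAFT_132079, a SurE-like phosphatase, at 0.498 and the major facilitator BKA90DRAFT_170100 at 0.611. For BKA90DRAFT_135438 they were the major facilitator BKA90DRAFT_173301 at 0.454, BKA90DRAFT_132079 at 0.542 and BKA90DRAFT_143097 itself at 0.655. BKA90DRAFT_141232 was nearest to BKA90DRAFT_4102, a peptide amidase, at 0.324, and BKA90DRAFT_136759 in turn was nearest to BKA90DRAFT_141232, at 0.762. For the ZIP gene that was lower, BKA90DRAFT_133616, the nearest annotated gene was a metallothionein, BKA90DRAFT_136452, at 0.157. The annotated gene nearest to BKA90DRAFT_156674, the major facilitator BKA90DRAFT_158569, lay at 2.13.

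Other metal-handling genes of the table were taken in 6 lists, whose counts stand beside the 25.9% of all genes called higher, the 25.5% called lower and the 51.4% called in either direction. Nothing is called particular to a list from them. The lists, like the members, were chosen with earlier results of these data known, so the adjusted p-values given for their genes are a description. All 5 metallothioneins, small cysteine-rich proteins that bind zinc, copper and cadmium, fell in F19, with a median log2 fold change of -2.22. They are not 5 separate loci. BKA90DRAFT_136452 (263231 to 263508) and BKA90DRAFT_136453 (264260 to 264527) lie close together on ML755994.1. BKA90DRAFT_148153 (51183 to 51632) and BKA90DRAFT_140243 (52480 to 52738) do so on ML756027.1. BKA90DRAFT_136452 had 84.3 and 53.8 FPKM in F19, against 517 and 345.4 in WLH (log2 fold change -2.88 ± 0.27, SE; edgeR, adjusted p = 0.000583). BKA90DRAFT_136453 (-2.62 ± 0.18, adjusted p = 0.000303) and BKA90DRAFT_140243 (-2.22 ± 0.36, adjusted p = 0.00278, and -2.91 without F19 replicate 1) fell too in edgeR's test. Without WLH replicate 1 the number of falls was 4. Replicate 1 was above replicate 2 in both F19 and WLH for all 5 metallothioneins, as it was for the CobW genes.

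Of 5 cation efflux genes, whose products move zinc and other metals out of the cytosol, 4 rose and 1 did not pass, with a median of 0.77. BKA90DRAFT_138552 had 61.8 and 55.3 FPKM in F19, against 27.4 and 31.1 in WLH (log2 fold change 0.77 ± 0.13, SE; edgeR, adjusted p = 0.00307). BKA90DRAFT_169843 (0.81 ± 0.24, edgeR, adjusted p = 0.0264) lost its call without F19 replicate 1, WLH replicate 1 or WLH replicate 2, and BKA90DRAFT_177136 (0.77 ± 0.22, edgeR, adjusted p = 0.0233) without F19 replicate 2, WLH replicate 1 or WLH replicate 2. The number of rises was 2 without F19 replicate 2 and 1 without either WLH library.

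The iron uptake list went both ways, with 6 rises and 2 falls among 13 genes, beside 51.4% of all genes called, and its median was 0.59. BKA90DRAFT_137806, a ferric reductase by its NAD-binding domain, of the enzymes that reduce iron before its uptake, had 8.20 and 7.93 FPKM in F19, against 0.10 and 0.29 in WLH (log2 fold change 5.18 ± 0.38, SE; edgeR, adjusted p = 0.000306). The value was 4.55 without WLH replicate 1 and 6.03 without WLH replicate 2. BKA90DRAFT_157074, of the same description, rose by 4.11 ± 0.44 (edgeR, adjusted p = 0.000792; 3.49 without F19 replicate 2). BKA90DRAFT_159275, a ferric reductase-like membrane protein under 1 FPKM in each library, fell (log2 fold change -2.62 ± 0.51, edgeR, adjusted p = 0.00551), with -3.65 without F19 replicate 1 and -2.03 without F19 replicate 2, and its call was lost without WLH replicate 1. Without either WLH library 1 gene of the list fell.

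Of 11 other metal carriers, 5 rose, 1 fell and 5 did not pass, close to the 51.4% of all genes called, and the median was 0.25. The CorA-like magnesium carrier BKA90DRAFT_90770 (1.47 ± 0.23, edgeR, adjusted p = 0.00239) and the NRAMP carrier BKA90DRAFT_137859 (1.20 ± 0.13, edgeR, adjusted p = 0.00088), of a family that moves iron and manganese, rose. BKA90DRAFT_113157, of the VIT family that stores iron in the vacuole in plants, fell (-1.15 ± 0.16, edgeR, adjusted p = 0.00149). Without either WLH library 3 genes rose, and without F19 replicate 2 there were 2 falls.

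The iron-sulfur and ferredoxin-type list had 1 rise and 1 fall among 6 genes, against 51.4% of all genes called, and its median was -0.03. The alpha-helical ferredoxin gene BKA90DRAFT_137134, with the annotation term of succinate dehydrogenase activity, had 127 and 119 FPKM in F19, against 318 and 302 in WLH (log2 fold change -1.57 ± 0.13, SE; edgeR, adjusted p = 0.000442). BKA90DRAFT_142473, a sucrase/ferredoxin-like gene (0.64 ± 0.15, edgeR, adjusted p = 0.0107), lost its call without either WLH library. The 3 zinc enzymes had a median of -0.35, and 1 of them, carbonic anhydrase, BKA90DRAFT_7633, fell (-0.53 ± 0.15, edgeR, adjusted p = 0.0226), a call lost without either WLH library and with library totals, where it had -0.29. Methionine aminopeptidase 2, BKA90DRAFT_140734, is named here although it was not called. It had 230.2 and 201 FPKM in F19, against 229 and 238 in WLH (edgeR, adjusted p = 0.0636), and passed narrowly in DESeq2 (adjusted p = 0.0486). The background above does not say which methionine aminopeptidase receives zinc from the CobW protein of baker's yeast and animals. Whether that enzyme is the counterpart of BKA90DRAFT_140734 was not checked, and whether a CobW protein serves BKA90DRAFT_140734 was not tested.

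**Figure D5:**
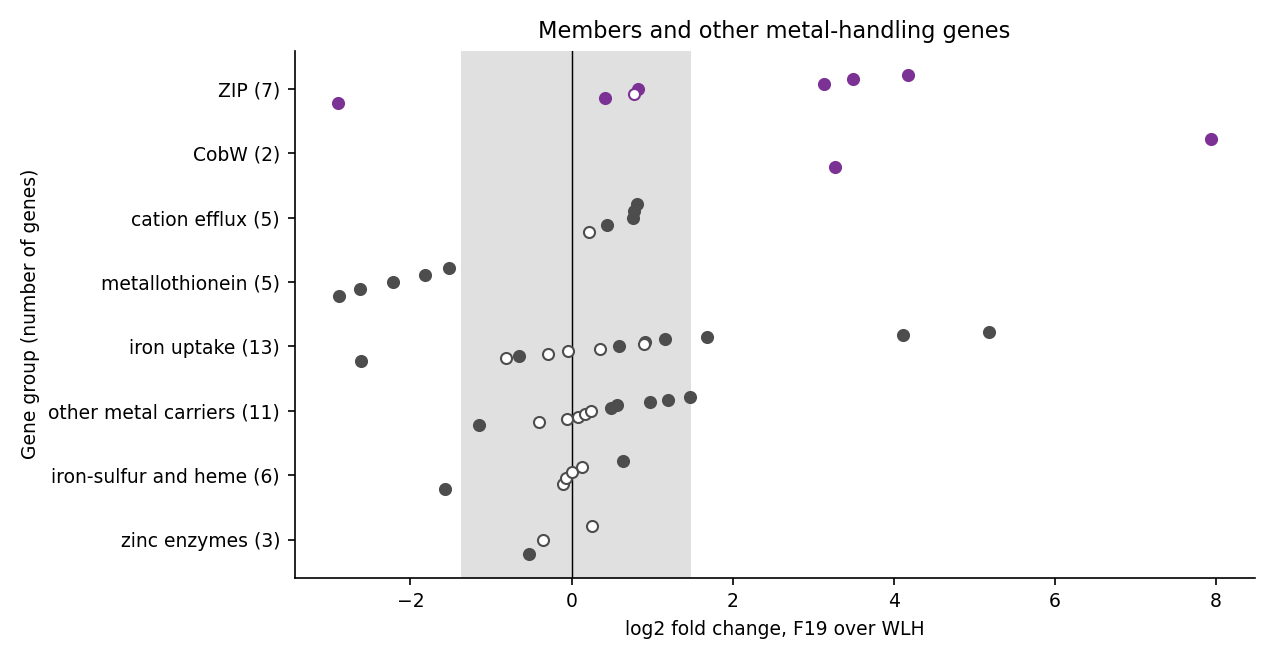
Log2 fold change of F19 over WLH for the members (purple) and for 6 lists of other metal-handling genes (grey), 1 point a gene, filled where called by edgeR at an adjusted p under 0.05 and open where not; the grey band holds the middle 90% of all genes. The 5 metallothioneins lie between -2.88 and -1.52, and the cation efflux genes between 0.22 and 0.81.

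Apart from the members, 2 genes carry annotation terms for zinc homeostasis or zinc transport, a lookup made after the values were seen. One is the efflux gene BKA90DRAFT_177136. The other, BKA90DRAFT_156963, is described as hypothetical but has terms for zinc homeostasis and for negative regulation of transcription. It had 64.9 and 73.6 FPKM in F19, against 19.5 and 14.4 in WLH, a log2 fold change of 1.79 ± 0.19 (SE; edgeR, adjusted p = 0.00073), which ran from 1.59 to 2.04 when single libraries were left out.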

How the data were processed

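RNA of F19 and WLH, 2 libraries each, was analysed from deposited tables. The submitters' processing notes name HISAT2 2.2.1, HTSeq 0.6.1, DESeq2 and cutadapt 1.9.1; roles, settings, strand handling and genome build remain information not given in the sources used here. The labels' protocols describe oligo(dT) selection and no strand-marking step. Per the file headers, the authors deposited raw counts, FPKM and exonic lengths for 6800 features, and a second table of genes they called significant with counts, FPKM, their signal averaged over libraries, fold, log2 fold change and error, statistic (score) and raw and adjusted p-values; the log2 fold changes alone were used, and positive means higher in F19. The column of WLH replicate 1, spelled with a letter I for the digit, was matched by its remaining name.

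Of the features, 3 name constructs and were left out. They took 0.333% and 0.387% of counts in F19, against 0.147% and 0.134% in WLH. Counts were fitted with edgeR 4.0.16 in R 4.3.3 (filterByExpr, TMM factors from 0.916 to 1.10, glmQLFit, two-sided glmQLFTest, strain as the only term), with Benjamini-Hochberg adjustment over 6414 genes and a threshold of 0.05. Standard errors are log2 fold changes over the root of F. On counts simulated for these genes with the same spread for all, edgeR recovered 79% of 2-fold and 100% of 4-fold changes. These shares do not describe genes with a wider spread, such as the CobW genes. DESeq2 1.42.0, limma 3.58.1 on log2(FPKM + 1), other scalings, no filter, a replicate block and leaving out each library were alternatives. Members and lists were chosen with earlier results of these data known. Named are the members, their neighbours, up to 3 called genes per list with the largest change, and the 3 annotated genes most like each called member, of which the text gives those of members with large changes; others are marked. Lists match words in descriptions. The RefSeq gene table given held 0 of the identifiers, and descriptions are those deposited. Near-identical copies share reads, which makes values of multigene families less certain. Intervals and floors cover counting error only.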

Additional observations from a re-analysis of the deposited data

How the results depend on the processing

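The members' direction held in each alternative in which they were fitted, except for BKA90DRAFT_11514, which had -0.46 without F19 replicate 1 and was not fitted by limma because of its low FPKM. The size for BKA90DRAFT_156674 depended on the method. It was 33.3-fold with limma on log2(FPKM + 1) and 187-fold on log2(FPKM + 0.1), against 245-fold in the main fit. With library totals 1066 genes fell in all, 1 iron uptake gene fell, 2 iron-sulfur and ferredoxin-type genes rose, and of the zinc enzymes 1 rose and 0 fell. With limma on log2(FPKM + 1) and on log2(FPKM + 0.1), 1056 and 1052 genes fell in all, 0 iron uptake genes fell, 2 iron-sulfur and ferredoxin-type genes rose, and of the zinc enzymes 1 rose and 0 fell. In DESeq2, 2 zinc enzymes fell. Library totals and FPKM moved the median of all genes by about the same amount, to 0.24 and 0.23, which bears on these splits. When single libraries were left out, 810 to 1534 genes rose and 860 to 1587 fell in all. The rises ranged from 5 to 7 among the members, 1 to 3 in cation efflux, 3 to 5 in other metal carriers and 0 to 1 in the iron-sulfur list. The falls ranged from 1 to 2 in iron uptake and other metal carriers and from 0 to 2 in zinc enzymes. With 1 library left in a strain, that library is taken to vary like the other strain's. The ZIP sum ratio, 9.01, ran from 7.89 to 10.5 without single libraries and was 7.66 from counts per kilobase with TMM factors.

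The shared replicate numbers are not said to mark a common batch. With the replicate number as a block, 1699 genes rose and 1670 fell, 2 other metal carriers fell, and the members' calls did not change. The correlation of the replicate differences of the strains across genes was -0.106; with the numbers crossed, an alternative chosen after seeing the data, 1792 rose and 1755 fell. Depth limits BKA90DRAFT_11514 and the WLH level of BKA90DRAFT_156674, where 3 counts equal 0.136 and 0.178 CPM in the WLH libraries.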
